A study of Mus musculus with 16 samples.

Results

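The data described here cover 6 genes, Gpr50, Hmga2, Shisa9, Nptx1, Zranb3 and S100a7l2, which are among the genes whose signal rose most in white fat of Sirt1 knockout mice on a high fat diet relative to the other 3 groups of the study. They were measured by 14 of the 45037 probe sets on the arrays and are 6 of the 18193 genes that had a probe set with 1 gene symbol. They were chosen by that measured rise, and for this reason their height in knockout high fat arrays is given as a description, with no test. The choice used the other 3 groups too, as the level to rise above, so comparisons among those groups are not independent of it. They are given with the test where a gene's signal allowed one, and support nothing beyond the values shown.

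The study took white adipose tissue from C57BL6/J mice and hybridised its RNA to 16 one-colour Affymetrix arrays, 4 in each group, which give a log2 expression value per probe set. The groups were FABP4-Cre mice on the high fat diet (knockout high fat arrays), FABP4-Cre mice on the low fat diet (knockout low fat arrays), and mice without Cre on the high fat diet (wild-type high fat arrays) or the low fat diet (wild-type low fat arrays). Feeding began at 4 weeks of age and lasted 8 weeks, and all mice were 12 weeks old when tissue was taken. Cre recombinase was placed under the FABP4 promoter, that of a fatty acid binding protein, so as to delete Sirt1, which encodes a protein deacetylase, in adipocytes. That promoter is known to be active in other cells as well, including macrophages. No group carried Cre with intact Sirt1, so that loss of Sirt1 and presence of the transgene cannot be told apart. Neither the fat depot nor the number of mice behind the replicates is stated in the labels, and p-values therefore reflect only how far these samples spread. The 4 arrays in each group limit the precision of every value. In whole tissue, fewer cells of a type and less RNA per cell cannot be told apart.

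The array medians lay between 4.34 and 4.46, and the adipocyte gene Adipoq had means of 13.37 in knockout and 13.53 in wild-type high fat arrays, and 13.56 in both genotypes on the low fat diet. None of the 8 measured of 10 adipocyte markers was under a log2 of 4 on every array of a group. The Sirt1 probe set had means of 8.74 in knockout and 8.97 in wild-type high fat arrays, and 9.24 and 9.43 on the low fat diet. Where that probe set lies relative to the deleted part is not stated in the labels, and it does not check the genotypes. Skeletal muscle transcripts (Tnnt3 at a log2 of 8 or more) marked 5 arrays, among knockouts replicate 4 on the high fat diet and 2 on the low fat diet, and among wild types replicate 3 on the high fat diet and 3 and 4 on the low fat diet. Wild-type high fat replicate 4, with Tnnt3 at 7.95, fell just under that cut and was not marked. Its summed level of muscle markers was 4875, against 4630 in knockout high fat replicate 4, which was marked. The array of wild-type high fat replicate 4 had high sums of epithelial markers and of mesothelial markers, a list that includes the keratin genes Krt8, Krt18 and Krt19.

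Gpr50 encodes an orphan receptor related to the melatonin receptors, and is best known from the hypothalamus, where it is found in the cells that line the third ventricle. Hmga2 encodes a chromatin protein that bends AT-rich DNA. It is active in the embryo and in dividing mesenchymal precursors, and the pygmy mouse, which lacks it, is small and lean. Shisa9 encodes an auxiliary subunit of AMPA-type glutamate receptors, and Nptx1 a secreted neuronal pentraxin that clusters such receptors at synapses. Zranb3 encodes a helicase that re-anneals DNA strands at stalled replication forks. S100a7l2 belongs to the S100 family of small calcium-binding proteins.

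The genes lie on different chromosomes: Gpr50 on X, Hmga2 on 10, Shisa9 on 16, Nptx1 on 11, Zranb3 on 1 and S100a7l2 on 3. RefSeq's table of promoters (GRCm38.p6) matched 4 of the 6. Their promoter windows, 250 bases before to 50 after the start, are shown because these genes were high on the same arrays, so that their start regions can be set side by side. Capitals mark matches on either strand to 6 motifs: TATAAA (the TATA box), CCAAT (the CCAAT box), GGGCGG (the GC box), CACGTG (the E-box), TGANTCA (the AP-1 motif) and TTGCNNAA (like the C/EBP motif). The matches shown do not overlap each other. The windows are chrX:71663417-71663716 on the plus strand for Gpr50 and, on the minus strand, chr1:128102998-128103297 for Zranb3, chr10:120476420-120476719 for Hmga2 and chr3:91090756-91091055 for S100a7l2.
Gpr50: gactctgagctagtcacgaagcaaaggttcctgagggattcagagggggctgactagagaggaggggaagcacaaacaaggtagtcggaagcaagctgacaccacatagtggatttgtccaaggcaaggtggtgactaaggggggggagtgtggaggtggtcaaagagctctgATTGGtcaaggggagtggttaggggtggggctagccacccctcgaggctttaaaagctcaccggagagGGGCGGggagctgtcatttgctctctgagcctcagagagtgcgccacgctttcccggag
Zranb3: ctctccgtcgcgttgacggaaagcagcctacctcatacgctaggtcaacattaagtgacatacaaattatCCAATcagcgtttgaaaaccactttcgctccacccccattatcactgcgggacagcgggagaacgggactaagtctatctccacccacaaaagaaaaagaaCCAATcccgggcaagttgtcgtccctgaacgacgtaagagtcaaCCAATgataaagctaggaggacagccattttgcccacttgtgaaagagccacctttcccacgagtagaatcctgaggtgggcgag
Hmga2: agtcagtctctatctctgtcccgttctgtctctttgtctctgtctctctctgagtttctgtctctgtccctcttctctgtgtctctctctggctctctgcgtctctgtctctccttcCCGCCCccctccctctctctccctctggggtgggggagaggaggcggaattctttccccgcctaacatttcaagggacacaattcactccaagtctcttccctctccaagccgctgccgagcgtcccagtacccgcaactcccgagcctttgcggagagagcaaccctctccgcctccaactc
S100a7l2: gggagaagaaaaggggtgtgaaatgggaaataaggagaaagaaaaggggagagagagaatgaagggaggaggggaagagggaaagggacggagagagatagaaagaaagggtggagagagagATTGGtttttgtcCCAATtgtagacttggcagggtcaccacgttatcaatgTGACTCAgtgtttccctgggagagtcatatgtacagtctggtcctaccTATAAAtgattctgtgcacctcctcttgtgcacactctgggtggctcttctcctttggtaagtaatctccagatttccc
The Gpr50 window held 1 CCAAT box, 77 bases before the start, and 1 GC box, 9 bases before it. In Zranb3 there were 3 CCAAT boxes, at 180, 79 and 35 bases before the start. Zranb3 had another start in the table, whose window is not shown and held 1 C/EBP-like match and no other motif of the 6. Hmga2 had 1 GC box at 133 bases before the start. S100a7l2 held a TATA box at 29 bases, an AP-1 match at 77 and CCAAT boxes at 128 and 115 bases before the start. Among all 32851 promoter windows in the table, 37.4% held a CCAAT box, 35.7% a GC box, 13.6% a TATA box, 7.8% an AP-1 match, 10.8% a C/EBP-like match and 7.2% an E-box. No motif was found in all 4 windows. The S100a7l2 window had 2 CpG sites and a GC content of 47.3%, while those of Gpr50, Hmga2 and Zranb3 had 8, 12 and 16 CpG sites and 57.3%, 57.7% and 50% GC. The medians of all windows were 7 CpG sites and 52.7%.

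Among the 6, Gpr50 had the largest difference between the diets in knockout fat. On its brighter probe set, 1455498_at, the log2 values were 11.07, 10.37, 10.25 and 10.47 in knockout high fat arrays, against 2.56, 1.69, 2.17 and 2.13 in knockout low fat arrays. Wild-type fat gave 3.07, 7.83, 7.28 and 7.54 on the high fat diet, against 3.17, 1.53, 2.06 and 2.40 on the low fat diet. All 4 knockout high fat arrays thus lay above every other array, and 3 of the 4 wild-type high fat arrays lay above every low fat array. The remaining one, replicate 1, was at the level of the low fat arrays. The knockout high fat mean exceeded the knockout low fat mean by 8.40 and the wild-type high fat mean by 4.11 on the log2 scale. With values floored at a log2 of 4 those differences were 6.54 and 3.88.

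In wild-type fat Gpr50 was also higher on the high fat diet. Its mean was 6.43 ± 2.25 on the high fat diet and 2.29 ± 0.69 on the low fat diet (SD, n = 4 each), a rise of 4.14 on the log2 scale (SE 0.74, limma adjusted p = 0.000513). The rise was called in every refit without 1 array, with an adjusted p of at most 0.00243 and differences between 3.68 and 5.26. It was 5.26 without wild-type high fat replicate 1 and 2.66 with values floored at 4. Outside the knockout high fat group Gpr50 reached a log2 of 4 on 3 arrays. It thus met the filter of 4 arrays only through the group where it was high, and its calls are descriptions. With no filter the adjusted p of the diet rise in wild-type fat was 0.000831. Gpr50 was under a log2 of 4 on every low fat array, and with values floored at 4 the low fat groups differed by 0. A missing call between them is therefore no result. Knockout fat on the low fat diet differed from wild-type fat on the same diet by -0.15 (95% confidence interval -1.73 to 1.43, adjusted p = 0.912). Against wild-type high fat arrays it was lower by 4.29 in its log2 mean (-4.29, SE 0.74, adjusted p = 0.00582), a call lost when the 5 muscle-marked arrays were left out (-3.86, adjusted p = 0.0678). In descending order of the mean, knockout high fat was followed by wild-type high fat and then by the low fat groups, which both lay under a log2 of 4.

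**Figure D1:**
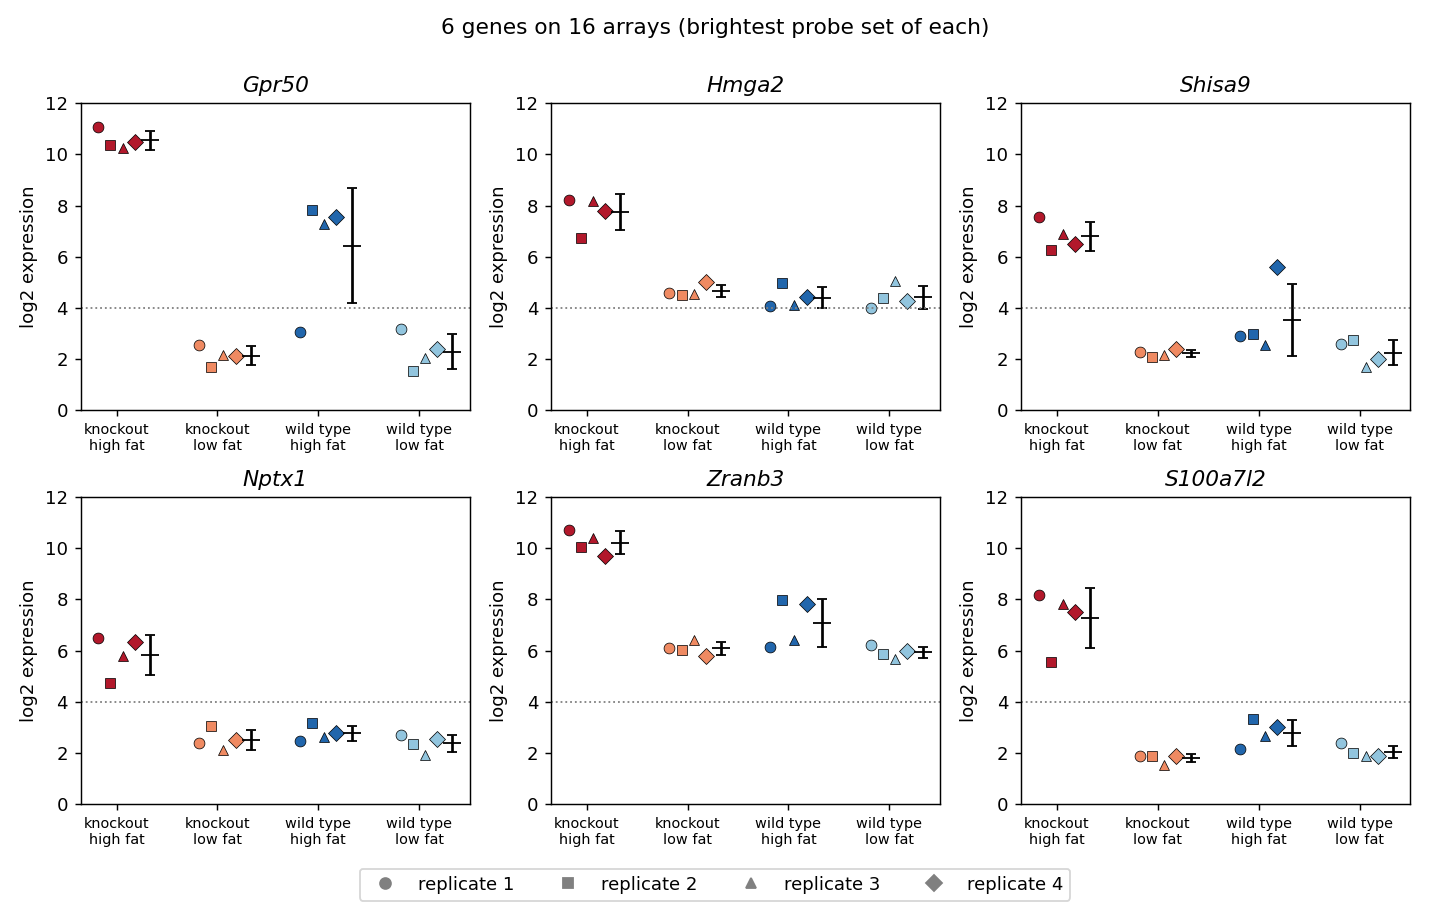
Log2 expression (vertical axis) of the brightest probe set of each gene on the 16 arrays, by group. Symbols mark replicates, bars the mean ± SD of 4 arrays and the dotted line a log2 of 4. In all 6 panels the 4 knockout high fat arrays lie above the other 12, and Gpr50 is at 3.07 in wild-type high fat replicate 1 but at 7.28 to 7.83 in the other replicates.

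The dimmer Gpr50 probe set, 1450346_at, gave the same order of knockout high fat against the rest at a far lower signal. It read 3.97, 3.55, 3.68 and 4.19 in knockout high fat arrays, where every other array read between 1.94 and 2.67. It did not pass the filter of a log2 of 4 on at least 4 arrays, and was not tested.

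Zranb3 was the other gene with a call for diet in wild-type fat. Probe set 1455544_at read 10.71, 10.05, 10.42 and 9.71 in knockout high fat arrays, against 6.11, 6.04, 6.42 and 5.81 in knockout low fat arrays. In wild-type fat it read 6.16, 7.96, 6.42 and 7.84 on the high fat diet, against 6.21, 5.87, 5.69 and 5.98 on the low fat diet. Wild-type high fat replicates 2 and 4 stood between the knockout high fat arrays and all others, and replicates 1 and 3 were at the level of the highest low fat arrays. The knockout high fat mean exceeded the knockout low fat mean by 4.13 and the wild-type high fat mean by 3.13.

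The log2 mean of Zranb3 in wild-type fat was 7.10 ± 0.94 on the high fat diet and 5.94 ± 0.22 on the low fat diet (SD, n = 4 each). That rise of 1.16 (SE 0.34) had a limma adjusted p of 0.0153. The call ended without wild-type high fat replicate 2 (0.87, adjusted p = 0.0576) or 4 (0.91, adjusted p = 0.0545), and without the 5 muscle-marked arrays (1.28, adjusted p = 0.0645). The other probe set, 1453617_at, read 8.40, 7.78, 8.23 and 7.28 in knockout high fat arrays, and in wild-type fat on that diet 3.73, 5.52, 3.72 and 5.38. The low fat arrays of both genotypes read between 3.05 and 3.82. Its rise with diet in wild-type fat was 1.26 (SE 0.37, limma adjusted p = 0.0135 over all probe sets), with the same 2 replicates high. In knockout low fat arrays the Zranb3 mean differed from wild type on that diet by 0.16 (95% confidence interval -0.57 to 0.88, adjusted p = 0.787). It differed from wild type on the high fat diet by -1.0 (-1.73 to -0.28, adjusted p = 0.113), which became a call without wild-type high fat replicate 1 (-1.31, adjusted p = 0.0277).

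Shisa9 was read by 3 probe sets, of which 1 reached a log2 of 4 on 4 arrays. That one, 1435424_x_at, carries the suffix Affymetrix gives to sets whose probes may also match other sequences. It read 7.54, 6.25, 6.91 and 6.48 in knockout high fat arrays, against 2.27, 2.10, 2.15 and 2.41 in knockout low fat arrays. Wild-type fat read 2.92, 2.99, 2.54 and 5.60 on the high fat diet, against 2.58, 2.73, 1.70 and 2.02 on the low fat diet. Only replicate 4 of the wild-type high fat arrays lay near the knockout high fat range. It was the only array outside the knockout high fat group at a log2 of 4 or more, and Shisa9 met the filter only through the group where it was high, so its differences among the other groups are given with no test. The difference of diet means in wild-type fat was 1.26, and 0.56 without that replicate. The knockout low fat mean differed from wild type by -0.03 on the low fat diet and by -1.28 from wild type on the high fat diet.

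The remaining Shisa9 probe sets gave much smaller separations. Probe set 1456995_at read between 2.85 and 3.51 in knockout high fat arrays and between 1.76 and 2.50 on all other arrays. On 1453428_at the knockout high fat arrays, at 3.55 to 4.12, overlapped with the wild-type low fat arrays at 3.17 to 3.67. The rise of Shisa9 over the highest other group mean was 3.28 on the brightest probe set and 1.56 on the mean of the 3.

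Nptx1 was under a log2 of 4 on every array outside the knockout high fat group. Its brighter probe set, 1434877_at, read 6.48, 4.75, 5.78 and 6.34 in knockout high fat arrays, against 2.40, 3.07, 2.13 and 2.51 in knockout low fat arrays. Wild-type values were 2.48, 3.16, 2.64 and 2.79 on the high fat diet, against 2.69, 2.34, 1.92 and 2.56 on the low fat diet. The 3 other groups overlapped throughout. The difference of means with diet in wild-type fat was 0.39, and that of knockout against wild type on the low fat diet 0.15. Nptx1 met the filter only through the group where it was high, so these are given with no test, and both were 0 with values floored at 4. Since its rise over the next group was 3.07 as measured but 1.84 with values floored at 4, the size of its rise depends on the low end of the scale. The second probe set, 1422130_at, stayed under 2.50 everywhere, with 2.03 to 2.48 in knockout high fat arrays and 1.20 to 1.91 elsewhere.

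Hmga2 had 4 probe sets. The brightest, 1450780_s_at, whose suffix denotes probes shared by several transcripts, read 8.22, 6.72, 8.20 and 7.79 in knockout high fat arrays, against 4.59, 4.51, 4.53 and 5.03 in knockout low fat arrays. In wild-type fat it read 4.09, 4.96, 4.11 and 4.42 on the high fat diet, against 3.99, 4.40, 5.05 and 4.27 on the low fat diet. The 3 other groups overlapped, and the knockout high fat mean stood 3.07 above the highest of them.

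Among the other 3 groups, no Hmga2 difference passed the test. The diet difference in wild-type fat was -0.03 (95% confidence interval -0.68 to 0.62, limma adjusted p = 0.946), that of knockout against wild type on the low fat diet 0.24 (-0.41 to 0.88, adjusted p = 0.623), and that of knockout low fat against wild-type high fat 0.27 (-0.38 to 0.92, adjusted p = 0.691). On 1422851_at the knockout high fat arrays read 6.29 to 7.71 and all others 2.46 to 3.98. On 1450781_at they read 5.21 to 6.38 and all others 2.80 to 3.62. The fourth, 1446196_at, did not separate the groups, with 1.67 to 2.12 in knockout high fat arrays and 1.46 to 2.00 elsewhere. A separate probe set assigned to the pseudogene Hmga2-ps1, looked up after the values were seen, followed another order, with means of 8.13 in knockout high fat, 7.35 in knockout low fat, 7.69 in wild-type high fat and 6.40 in wild-type low fat arrays. Its rise with diet in wild-type fat was 1.29 (SE 0.21, limma adjusted p = 0.000228).

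S100a7l2 had a single probe set, 1445608_at. It read 8.18, 5.54, 7.82 and 7.53 in knockout high fat arrays, against 1.89, 1.88, 1.55 and 1.90 in knockout low fat arrays. The wild-type values were 2.14, 3.34, 2.66 and 3.04 on the high fat diet, against 2.40, 1.99, 1.89 and 1.87 on the low fat diet. Its rise over the highest other group mean was 4.47, the largest of the 6 by that measure, and 3.27 with values floored at 4. The wild-type means of 2.79 ± 0.52 on the high fat diet and 2.04 ± 0.25 on the low fat diet (SD, n = 4 each) differed by 0.75.

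Every S100a7l2 value outside the knockout high fat group was below 4, and the gene met the filter only through the group where it was high. Its differences among the other groups therefore have no test here, and all were 0 once values were floored at 4. As measured, the knockout low fat mean was below that of wild-type high fat by 0.99 (-0.99) and below that of wild-type low fat by 0.23 (-0.23).

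**Figure D2:**
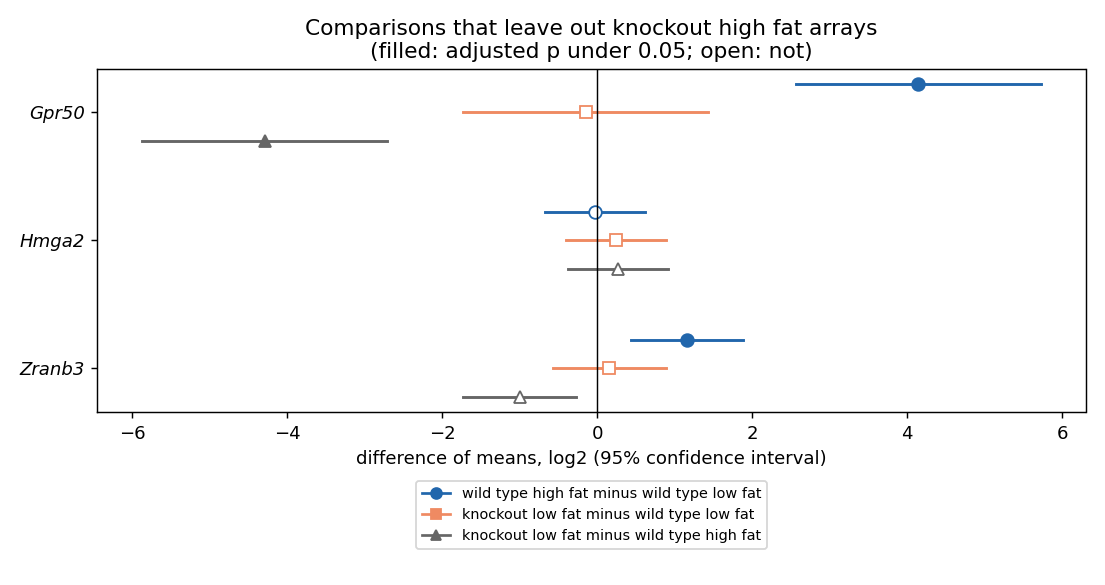
Differences of means in log2 units (horizontal axis) with 95% confidence intervals for Gpr50, Hmga2 and Zranb3, the genes at a log2 of 4 or more on at least 3 arrays outside the knockout high fat group, in the 3 comparisons that leave out the knockout high fat arrays, 4 against 4 arrays each; filled symbols passed the adjusted p threshold of 0.05. Gpr50 (4.14) and Zranb3 (1.16) passed for diet in wild-type fat, and Gpr50 (-4.29) for knockout low fat against wild-type high fat. Gpr50 met the filter of 4 arrays only through the knockout high fat group, so its symbols, filled or open, are descriptions.

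Hmga2 and Zranb3 alone among the 6 met the filter without the knockout high fat arrays. The counts that follow include genes that met it only through those arrays, for which a missing call is no result. They describe the 6 and support nothing, and the shares of all genes are given for scale only. With diet in wild-type fat, 2 of the 6 genes rose and none fell, where 35.6% of the 12078 genes tested were called, 20.5% up and 15.2% down. After subtraction of each array's median over tested genes, 2050 of all genes rose and 2552 fell, against 2472 and 1832 as deposited. For knockout against wild type on the low fat diet limma called 0 of the 6, with 0 at an unadjusted p under 0.05, where 18.9% of all genes were called, 11.7% up and 7.24% down (1151 and 1274 genes after that subtraction, against 1410 and 874). For knockout low fat against wild-type high fat 1 of the 6 fell, Gpr50, where 4.3% of all genes were called, 2.06% up and 2.24% down. In none of the 6 did all 4 wild-type high fat arrays lie above all 4 wild-type low fat arrays, which was seen in 17.7% of the genes tested. Nor did any of the 6 have all 4 knockout low fat arrays above all 4 of either wild-type group, as 11.8% of genes had against the low fat and 7.47% against the high fat group.

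**Figure D3:**
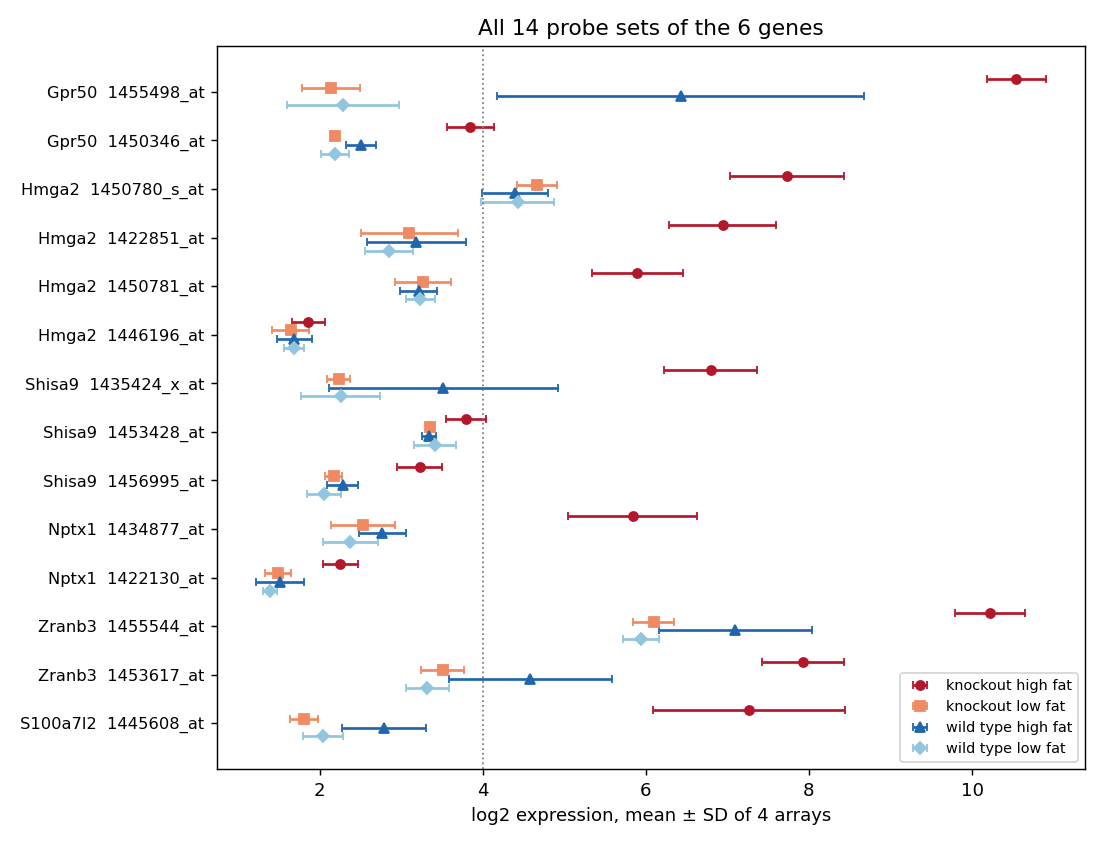
Mean ± SD of 4 arrays in log2 expression (horizontal axis) for all 14 probe sets, by group; the dotted line is a log2 of 4. The knockout high fat mean is the highest for all 14, by 4.47 for S100a7l2 but by 0.17 for Hmga2 probe set 1446196_at.

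On 12 of the 14 probe sets all 4 knockout high fat arrays lay above the other 12 arrays. This was so for all 6 genes on their brightest probe set, as for 8.18% of all genes tested, and nothing follows from it for the 6 because the choice rested on it. Their rise over the highest other group was 3.07 or more, where 0.447% of the genes tested reached 2. Ranked by the knockout high fat mean minus the highest other group mean over 18193 genes, S100a7l2 came 1st, Gpr50 3rd, Shisa9 5th, Zranb3 8th, Nptx1 10th and Hmga2 11th. By this measure 5 genes that are not among the 6 stood above Hmga2 (3.07). They were Olr1 (4.30), for a receptor of oxidised low density lipoprotein, Lcn2 (4.07), for the secreted protein lipocalin 2, Trem2 (3.22), a lipid receptor gene of macrophages, the provisional gene 9030619P08Rik (3.20) and Ccl3 (3.11), a chemokine gene. Olr1 and Lcn2 were named after their values were seen, and Olr1 stood above all of the 6 but S100a7l2. Just below came Sel1l3 (2.99), the Toll-like receptor gene Tlr13 (2.91) and the ubiquitin ligase gene Rnf128 (2.88).

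Within the high fat groups the 6 genes tended to be high or low on the same arrays. In knockout high fat arrays, replicate 1 had the highest value of all 6 genes and replicate 2 the lowest of 4 of them, Hmga2, Shisa9, Nptx1 and S100a7l2. In wild-type high fat arrays replicate 1 had the lowest value of 5 of the 6, the exception being Shisa9 with its lowest value in replicate 3. Replicate 2 there had the highest value of 5 genes and replicate 4 that of Shisa9. The low fat groups were more mixed. Each knockout low fat replicate had the highest value of at least 1 gene, and wild-type low fat replicate 1 that of 4 genes. After removal of the group means, all 15 pairs of genes correlated above 0 over the 16 arrays, with r from 0.17 for Hmga2 and Shisa9 to 0.84 for Nptx1 and S100a7l2 and a median of 0.41. Hmga2 and S100a7l2 had 0.75, and Gpr50 and Zranb3 0.67. These correlations are descriptions, since all pairs share the same arrays and their scaling.

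**Figure D4:**
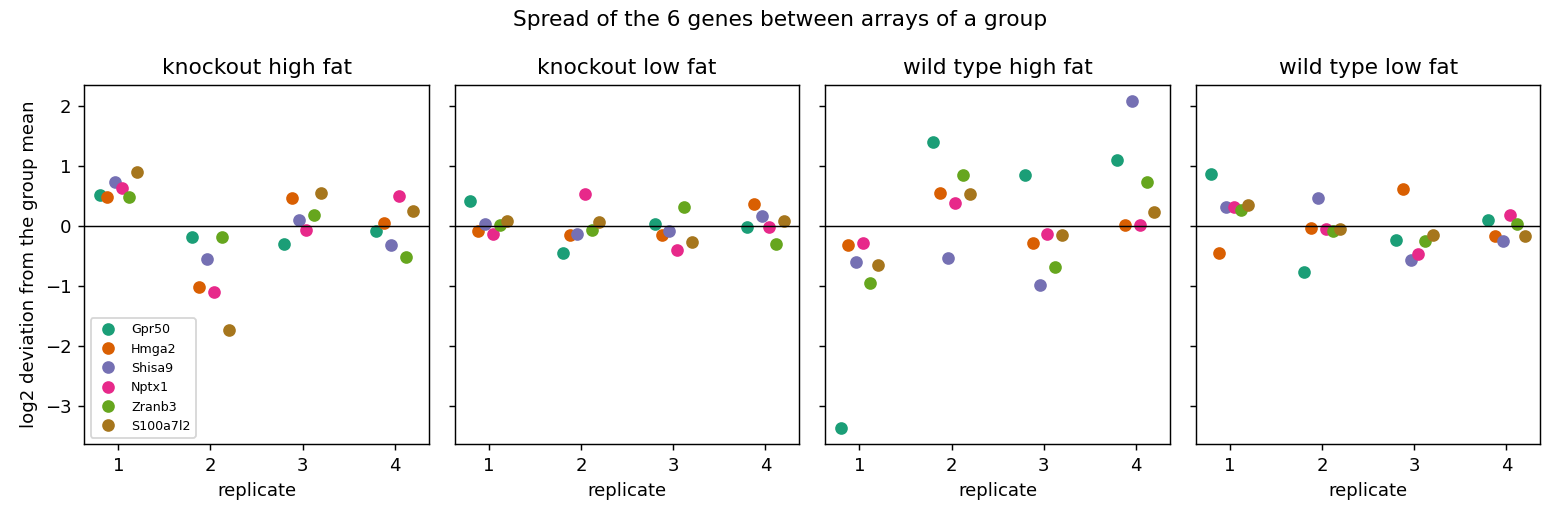
Deviation of each gene from its group mean in log2 units (vertical axis) by replicate, for the 4 groups. In knockout high fat replicate 1 all 6 genes lie above their mean, and in wild-type high fat replicate 1 all 6 lie below it, Gpr50 most.

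Genes around and related to the 6 were examined through lists. Of genes tied to Gpr50, its receptor relatives and reported partner proteins, 4 of 6 were tested. In knockout high fat arrays against knockout low fat arrays 2 rose and none fell, with a median difference of 0.25, where 15.6% of all genes rose, 13.5% fell and the median was -0.02. They were Tgfbr1, the type I receptor for TGF-beta, by 0.42 (SE 0.14, limma adjusted p = 0.0303) and the acetyltransferase gene Kat5 by 0.34 (SE 0.12, adjusted p = 0.0443). Against wild-type high fat arrays none was called, where 8.58% of all genes rose, 6.47% fell and the median was 0.0026. The melatonin receptor gene Mtnr1a had means between 1.43 and 1.51 in the 4 groups and was not tested.

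Of 17 growth genes linked to Hmga2 and to the microRNA let-7, 7 were tested, 0 rose and 2 fell with diet in knockout fat, with a median difference of 0.04. Igf2, an imprinted growth factor gene, fell by 1.07 (-1.07, SE 0.23, limma adjusted p = 0.00218), and the growth factor receptor gene Igf1r by 1.05 (-1.05, SE 0.36, adjusted p = 0.0394). Against wild-type high fat arrays Igf1r fell and Cdkn2b, a cell cycle inhibitor gene, rose by 0.88 (SE 0.28, adjusted p = 0.0422). Without the 5 muscle-marked arrays 0 genes of the list were called there.

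The synaptic relatives of Shisa9 and Nptx1 were mostly dim. Of 19 measured AMPA receptor subunits and auxiliary proteins, 15 lay under a log2 of 4 on every knockout high fat array and 4 were tested. Olfm1, for the secreted protein olfactomedin 1, rose with diet in knockout fat by 0.50 (SE 0.18, limma adjusted p = 0.0481), a call lost without the 5 muscle-marked arrays, and the list's median difference was 0.14. In the Shisa family 3 of 7 were tested, with a median difference of 0.05, and Shisa2 fell by 1.35 (-1.35, SE 0.43, adjusted p = 0.028). Among the pentraxins 1 of 6 was tested. This was Ptx3, a long pentraxin of innate immunity, which rose with diet in knockout fat by 3.49 (SE 0.41, adjusted p = 1.85e-05) and stood 2.30 above wild-type high fat arrays (SE 0.41, adjusted p = 0.00171). Nptx2, for another neuronal pentraxin, had means between 1.98 and 2.34.

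For Zranb3, 21 of 25 genes of replication fork repair were tested. With diet in knockout fat 8 rose and 2 fell, with a median difference of 0.19, and against wild-type high fat arrays 5 rose and 1 fell, with a median of 0.25. Without the 5 muscle-marked arrays 6 rose and 1 fell in the first comparison, and 3 rose and 0 fell in the second. Brca1, of homologous recombination, rose with diet in knockout fat by 3.74 (SE 0.30, limma adjusted p = 9.69e-07), the fork mediator gene Clspn by 1.94 (SE 0.19, adjusted p = 3.59e-06) and the checkpoint kinase gene Chek1 by 1.37 (SE 0.16, adjusted p = 1.4e-05). In these genes the knockout low fat means lay under a log2 of 4. Shprh, a ubiquitin ligase gene of damage tolerance, fell by 0.68 (-0.68, SE 0.14, adjusted p = 0.00189). Smarcal1, which encodes a helicase of the same kind as Zranb3, had means of 8.25, 8.12, 8.17 and 8.64 in knockout high fat, knockout low fat, wild-type high fat and wild-type low fat arrays. Its difference with diet in knockout fat was 0.14 (SE 0.21, adjusted p = 0.669).

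In the S100 family with its receptors, 12 of 17 genes were tested, and with diet in knockout fat 3 rose and none fell, with a median difference of 0.20. S100a8, a subunit of calprotectin in myeloid cells, rose by 3.01 (SE 0.41, limma adjusted p = 5.95e-05), S100a4 by 1.17 (SE 0.21, adjusted p = 0.000725) and S100g, for a calcium-binding protein of gut and kidney, by 1.63 (SE 0.43, adjusted p = 0.0103). Against wild-type high fat arrays S100a8 and S100a4 rose, by 2.39 and 0.67, and 1 of the list was called without the 5 muscle-marked arrays. S100a8 also rose with diet in wild-type fat by 3.37 (SE 0.41, adjusted p = 2.09e-05) and in knockout against wild-type low fat arrays by 2.75 (SE 0.41, adjusted p = 0.000347). S100a7l2 has no test in those comparisons, and the difference between the genes was not tested. S100a9, the partner of S100a8, had a difference of 0.39 with diet in knockout fat (SE 0.69, adjusted p = 0.71).

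The 2 nearest measured protein-coding genes on either side of each gene on its chromosome were looked up too, after the data were seen. Of these 24 neighbours 22 were tested. With diet in knockout fat 4 rose and 1 fell (15.6% and 13.5% of all genes), and against wild-type high fat arrays 3 rose and 1 fell (8.58% and 6.47% of all genes). The neighbours that passed the first comparison, named here after their values were seen, were S100a8 beside S100a7l2, Chmp6 (0.86, SE 0.21, limma adjusted p = 0.00594) and Rptor (0.64, SE 0.22, adjusted p = 0.0401) beside Nptx1, and R3hdm1 (0.41, SE 0.11, adjusted p = 0.00855) and Ccnt2 (-0.42, SE 0.14, adjusted p = 0.0385) beside Zranb3. None of the tested neighbours of Gpr50, Hmga2 or Shisa9 was called.

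Markers of other cells moved with the knockout high fat group. Of 10 macrophage markers, 6 rose with diet in knockout fat and 5 against wild-type high fat arrays, with a median difference of 1.12 in the first. Of 9 tested markers of lipid-loaded macrophages 7 and 5 rose, with a median of 2.36, and of 11 tested genes of cycling cells 11 and 10 rose, with a median of 2.31. Without the 5 muscle-marked arrays the counts against wild type were 4, 5 and 6. The summed linear level of the lipid-loaded macrophage list lay between 36748 and 39292 in knockout high fat arrays, 19648 and 21112 in knockout low fat, 21922 and 29533 in wild-type high fat, and 16466 and 17794 in wild-type low fat arrays. That of the cycling list lay between 3750 and 4247, 729 and 1382, 1342 and 2476, and 383 and 681 in the same order. Wild-type high fat replicates 2 and 4, which were high in Zranb3, were also the highest of their group in both lists, with 28792 and 29533 for lipid-loaded macrophages and 2476 and 2174 for cycling cells. Their part in the level of the 6 genes was not tested.

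Neuronal markers were not high on the knockout high fat arrays, where the synaptic genes Shisa9 and Nptx1 were. Of 14 neuronal markers 11 lay under a log2 of 4 on every knockout high fat array, and the summed level was 231 to 300 there, against 292 to 375 in knockout low fat, 334 to 1104 in wild-type high fat and 364 to 522 in wild-type low fat arrays. Of the 2 tested neuronal markers, Stmn2 fell with diet in knockout fat by 0.88 (-0.88, SE 0.17, limma adjusted p = 0.00136). The other, Uchl1, differed by 0.19 and was not called (SE 0.57, adjusted p = 0.832). None of 3 tested Schwann cell markers was called. Of the keratinocyte and epithelial markers 8 of 10 lay under a log2 of 4 on every knockout high fat array, with a summed level of 167 to 212. In wild-type high fat replicate 4, the array with Shisa9 at 5.60, that sum was 4944 and the sum of mesothelial markers 14355, against at most 4205 in the other 3 of its group. What part this had in the Shisa9 value was not tested.

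Mesothelial markers fell in 5 of 7 with diet in knockout fat and in 6 of 7 against wild-type high fat arrays (3 and 2 without the 5 muscle-marked arrays), with medians of -1.59 and -1.61. Adipocyte progenitor markers fell in 2 of 7 in either comparison (without those arrays 1 rose and 2 fell, and 1 fell), Dpp4 by 0.88 with diet in knockout fat (-0.88, SE 0.20, limma adjusted p = 0.0034). Pdgfra, a growth factor receptor gene that marks these cells, had a difference of -0.39 (SE 0.16, adjusted p = 0.0772). Adipocyte markers fell in 2 of 8 with diet in knockout fat and in 1 of 8 against wild type, and 0 fell in either without the 5 muscle-marked arrays. Of 8 muscle markers 1, Pvalb, rose with diet in knockout fat by 3.66 (SE 1.04, adjusted p = 0.015) and 0 were called down. The median difference of that list was -0.41, against the direction of Pvalb.

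**Figure D5:**
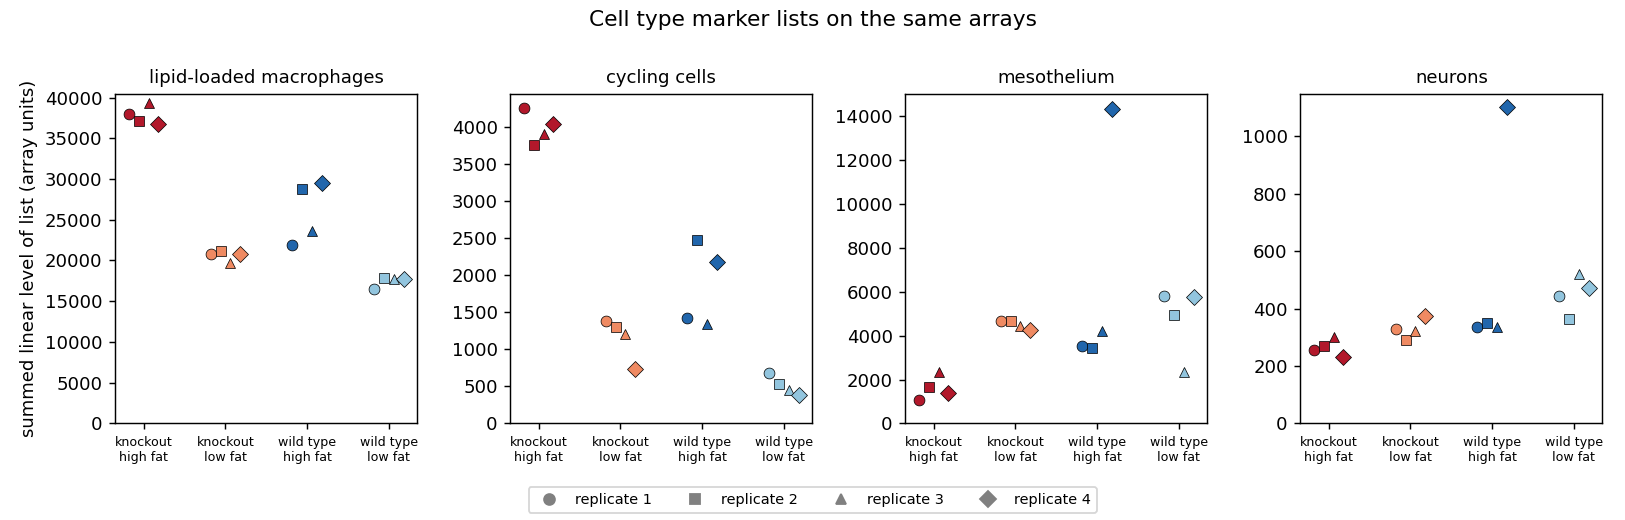
Summed linear level of 4 marker lists (vertical axes, array units, from 0) on the 16 arrays, by group, with symbols for replicates. The lipid-loaded macrophage (36748 to 39292) and cycling (3750 to 4247) lists are highest on the 4 knockout high fat arrays, while the neuronal list is not (231 to 300); wild-type high fat replicate 4 stands apart in the mesothelial and neuronal lists.

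The genes whose pattern over the 16 arrays was most like each of the 6 were found by Pearson's r, which is a description over arrays that share groups and scaling. For Gpr50 these were the chemokine gene Ccl2 (r = 0.975), Gla, for the lysosomal enzyme alpha-galactosidase A (0.969), and the heparan sulfate enzyme gene Hs6st1 (0.966). Ccl2 had log2 means of 8.40, 5.38, 7.16 and 5.37 in knockout high fat, knockout low fat, wild-type high fat and wild-type low fat arrays. Zranb3 was closest to the receptor gene Cd72 (0.989), Stra6l (0.986) and the mitochondrial carrier gene Slc25a13 (0.985). Cd72 had means of 9.22, 6.15, 6.66 and 5.89 in the same order.

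Nptx1 and S100a7l2 shared their 3 closest genes, the adhesion gene Nrcam (r = 0.979 and 0.969), the lysosomal phospholipase gene Pla2g15 (0.960 and 0.972) and the sialic acid-binding receptor gene Cd22 (0.957 and 0.975). Nrcam had means of 6.27, 3.60, 3.90 and 3.52 in knockout high fat, knockout low fat, wild-type high fat and wild-type low fat arrays. Shisa9 was closest to Sel1l3 (0.977), the glycosyltransferase gene Galnt6 (0.956) and Plekhn1 (0.956). Hmga2 was closest to Atp6v0b, a subunit of the lysosomal proton pump (0.958), the cholesterol transporter gene Stard3 (0.953) and the lysosomal amino acid transporter gene Slc66a1 (0.951). Among the 6 themselves r ran from 0.79 for Gpr50 and Hmga2 to 0.98 for Nptx1 and S100a7l2, a range that the choice of the genes fixes in part.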

How the data were processed

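RNA of 16 white fat samples, labelled from 5 ug of total RNA, was hybridised to Affymetrix mouse arrays. The authors deposited log2 values, which the submitters' processing notes credit to GCRMA 2.20.0 and R 2.11.1. No filter or batch step of theirs is named in the labels, and scanner intensities were not used. Array depth has no read count, and precision is limited by 4 arrays in each group.

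Probe sets were named through the platform's probe table, and only those with 1 symbol were used. Each gene was represented by its brightest probe set over all arrays. Genes with a log2 of 4 or more on at least 4 arrays were tested (12078 of 18193). All 16 arrays entered a limma 3.58.1 model (R 4.3.3) of the group means (lmFit, eBayes, two-sided), with Benjamini-Hochberg adjustment over all genes tested and a threshold of 0.05. The fit was tested on simulated data.

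The 6 genes and all lists were chosen with earlier results of these data known. Named genes were the 6, up to 4 called genes with the smallest p in each list, the 3 genes most correlated with each of the 6, neighbours in the rank of rises and relatives of the 6. The chromosomal neighbours, Hmga2-ps1 and list counts without arrays with muscle transcripts were added after the data were seen. Promoters came from RefSeq (GRCm38.p6), which matched 4 of the 6 genes. Alternatives were no filter, a floor, other scalings, other probe set rules, moderated variance with a trend, a replicate block, fewer arrays and each array left out.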

Additional observations from a re-analysis of the deposited data

Results flagged for a closer look

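In groups of 4 arrays, 1 array lay far from the other 3 in 6 of 56 combinations of probe set and group, by Dixon's test of the gap over the whole range. Chance gives about 1 in 20. Wild-type high fat replicate 1 had 3.07 for Gpr50 on 1455498_at, where the other 3 lay between 7.28 and 7.83 (gap over range 0.885). Wild-type high fat replicate 4 had 5.60 for Shisa9 on 1435424_x_at, where the others lay between 2.54 and 2.99 (0.852). Knockout low fat replicate 4 stood above the others for Hmga2 on 2 probe sets, with 5.03 against 4.51 to 4.59 on 1450780_s_at (0.861) and 3.98 against 2.76 to 2.86 on 1422851_at (0.925). The dim Hmga2 probe set 1446196_at had 2.00 in wild-type high fat replicate 3 and 1.55 to 1.62 in the other 3 (0.854). S100a7l2 had 1.55 in knockout low fat replicate 3 and 1.88 to 1.90 in the others (0.926), all of them under a log2 of 4.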

How the results depend on the processing

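Differences of the 6 genes in the 3 comparisons without knockout high fat arrays were recomputed 471 times. Of these, 446 kept their side of the threshold with no change of sign, 6 became calls, 4 lost their call and 15 changed sign. The 446 include differences that became 0 with values under 4 set to 4, such as those of Nptx1 and S100a7l2. Only Hmga2 and Zranb3 met the filter without the knockout high fat arrays. For the other genes a missing call that stayed missing is no result, so the tally does not measure stability. Of the 6 that became calls, 4 were of S100a7l2 and 1 of Shisa9, which met the filter only through the knockout high fat arrays, so these calls are not used. No call changed sign. The sign changed for Hmga2 with diet in wild-type fat with the mean of probe sets (0.072) and without the 5 arrays with muscle transcripts (0.30), and for knockout against wild type on the low fat diet for Shisa9 with the mean of probe sets (0.0097) and for Nptx1 without those 5 arrays (-0.16). With 1 array left out the ranges were -0.22 to 0.18 for Hmga2 with diet in wild-type fat, and for knockout against wild type on the low fat diet -0.40 to 0.14 for Gpr50, -0.21 to 0.13 for Shisa9 and -0.028 to 0.28 for Nptx1. The cause of these changes was not tested. The rise over the highest other group was 1.84 for Nptx1 and 3.27 for S100a7l2 with values under 4 set to 4, and 1.56 for Shisa9 with the mean of probe sets.

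The numbers of genes called were 4304 for diet in wild-type fat, 2284 for knockout on the low fat diet, 519 for knockout low fat against wild-type high fat, 3523 for diet in knockout fat and 1818 for knockout on the high fat diet. With all probe sets in place of 1 per gene they were 9059, 4619, 960, 7071 and 3184 in that order, since more features were tested. Without the 5 arrays with muscle transcripts they were 2567, 845, 248, 2341 and 814. The 12 arrays outside the knockout high fat group gave 297 for knockout low fat against wild-type high fat. With 1 array left out the counts were 3581 to 4735, 1426 to 3075, 190 to 670, 2673 to 3821 and 1084 to 2079. For knockout on the low fat diet the count was 1426 without knockout low fat replicate 1 and 1515 without replicate 2. For knockout low fat against wild-type high fat it was 192 and 273 without knockout low fat replicates 3 and 4, and 190, 330 and 222 without wild-type high fat replicates 2, 3 and 4. For knockout on the high fat diet it was 1084 without knockout high fat replicate 1 and 1204 without wild-type high fat replicate 3.

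Whether arrays of the same replicate number belong together is not settled. After removal of the group means, r between arrays of the same number lay between -0.32 and 0.20 in 24 pairs, with 5 over 0.1. With the replicate number as a block the counts were 4188, 2118, 421, 3400 and 1670, the adjusted p of the diet difference in wild-type fat was 0.00199 for Gpr50 and 0.0309 for Zranb3, and no call of the 6 genes changed. Values under a log2 of 4, near the low end of the array's signal, limit what can be said of Nptx1, Shisa9 and S100a7l2 outside the knockout high fat group. The same limit holds for Gpr50, which reached 4 on 3 of those 12 arrays, and for the Hmga2 probe sets other than the brightest.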
